A study of Homo sapiens with 12 samples.

Results

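Receptor tyrosine kinases are membrane receptors that bind growth factors outside the cell and phosphorylate tyrosines inside it, which recruits adaptors and starts the RAS-MAPK and PI3K-AKT cascades. The EGF family ligands are made as membrane precursors and shed by ADAM proteases before they reach EGFR and the other ERBB receptors. Lung cancers are known for activating changes in several of these receptors, among them EGFR, MET, ALK, RET and ROS1. The genes described here are 27 of these receptors and 9 of their ligands, 7 of the EGF family plus FGF2 and HGF. They were chosen by symbol as a named family of 36 genes, and all 36 were found among the 26535 features of the count table. The filter on low counts kept 34 of them for testing and left out ALK and KIT.

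The study compared A549, an established line of human lung adenocarcinoma, with H1299, an established line of human non-small-cell lung carcinoma, after lentiviral delivery of VGF, the gene of a secreted neuroendocrine precursor, or of an empty vector. The groups were H1299 with VGF, H1299 with empty vector, A549 with VGF and A549 with empty vector, with 3 RNA-seq libraries each. All cells carried a lentivirus, and the genotype label of all 12 libraries was wild type. H1299 was grown in RPMI-1640 and A549 in DMEM/F12, so the line and its medium cannot be told apart. Per the design text the 3 replicates of a group are independent biologically, and the titles gave the groups because the treatment note of all 12 libraries spoke of the empty vector alone.

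Library totals ran from 31378171 to 41919484 counts. VGF itself averaged 980.4 CPM (counts scaled to library depth by the TMM method) in H1299 with VGF and 85.6 CPM in H1299 with empty vector, and 1283 CPM in A549 with VGF and 2.43 CPM in A549 with empty vector. CDH1, the epithelial cadherin, had 0 counts in all 6 H1299 libraries and 2653 to 3190 in the A549 libraries. EPCAM, another epithelial marker, was under 1 CPM on average in all 4 groups. The keratins KRT7, KRT8, KRT18 and KRT19, also epithelial markers, averaged 1.213, 471.2, 585.3 and 0.5305 CPM in H1299 with empty vector. In A549 with empty vector these keratins averaged 1051, 3697, 2237 and 3.775 CPM in the same order. One library stood apart. A549 VGF library 2 held 18032 counts over 12 endothelial markers, where A549 VGF libraries 1 and 3 held 2529 and 3239, the A549 empty-vector libraries 2532 to 2961 and the H1299 libraries 1033 to 1311. Its PECAM1 and CDH5 counts were 3305 and 3387, while the other A549 libraries had 19 to 61 and 0 to 21. CDH5 had 0 counts in 5 of the 6 H1299 libraries. Results that rest on this library are given with and without it, except the VGF value of HBEGF in A549. The differences of HBEGF and MERTK between the lines with VGF are also given with this library alone, though it was their highest A549 library.

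The receptor and ligand levels were first set side by side within each line in FPKM, which divides by gene length. EPHA2, an ephrin-A receptor, was the most abundant of the 27 receptors in both lines. AXL, a receptor outside these 27, stood above EPHA2 in H1299, at 249.8 ± 2.11 FPKM with empty vector (SD, n = 3). In H1299 EPHA2 averaged 81.7 ± 6.07 FPKM with VGF and 78.8 ± 4.54 FPKM with empty vector, and in A549 44.7 ± 2.66 FPKM with VGF and 44.4 ± 2.14 FPKM with empty vector (SD, n = 3 each). In H1299 with empty vector EPHA2 was followed by FGFR1 at 20.7 ± 0.871 FPKM, MET at 16.7 ± 2.27 FPKM, EPHB4 at 15.9 ± 0.763 FPKM, DDR1 at 13.2 ± 1.46 FPKM and EGFR at 11.2 ± 0.0393 FPKM, of which MET and EPHB4 overlapped between libraries. In A549 with empty vector EPHA2 and MET overlapped, with MET at 43.5 ± 1.21 FPKM, and FGFR1 at 37.3 ± 2.00 FPKM, ERBB2 at 32.0 ± 1.93 FPKM and EGFR at 31.0 ± 0.333 FPKM came next. The H1299 order thus set EPHA2 far above the rest, while 5 receptors lay above 30 FPKM in A549 with empty vector, of which ERBB2 and EGFR overlapped.

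The ligands were ordered differently in the lines. In H1299 with empty vector the leading ligands were TGFA at 7.00 ± 0.224 FPKM and HBEGF at 6.61 ± 0.382 FPKM, which overlapped between libraries, followed by FGF2 at 4.69 ± 0.430 FPKM and NRG1 at 4.26 ± 1.22 FPKM. In A549 with empty vector they were AREG at 56.6 ± 3.96 FPKM and EREG at 53.8 ± 0.316 FPKM, which overlapped between libraries, then NRG1 at 34.1 ± 2.47 FPKM and FGF2 at 27.1 ± 1.11 FPKM. None of the 9 ligands exceeded 10 FPKM on average in either H1299 group, and 4 did in either A549 group. The mean levels of the 9 ligands summed to 24.4 FPKM in H1299 with VGF, 23.2 FPKM in H1299 with empty vector, 155 FPKM in A549 with VGF and 180.2 FPKM in A549 with empty vector. The 27 receptors summed to 187 and 186 FPKM in H1299 with VGF and with empty vector, and to 300.9 and 321 FPKM in A549 with VGF and with empty vector.

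**Figure D1:**
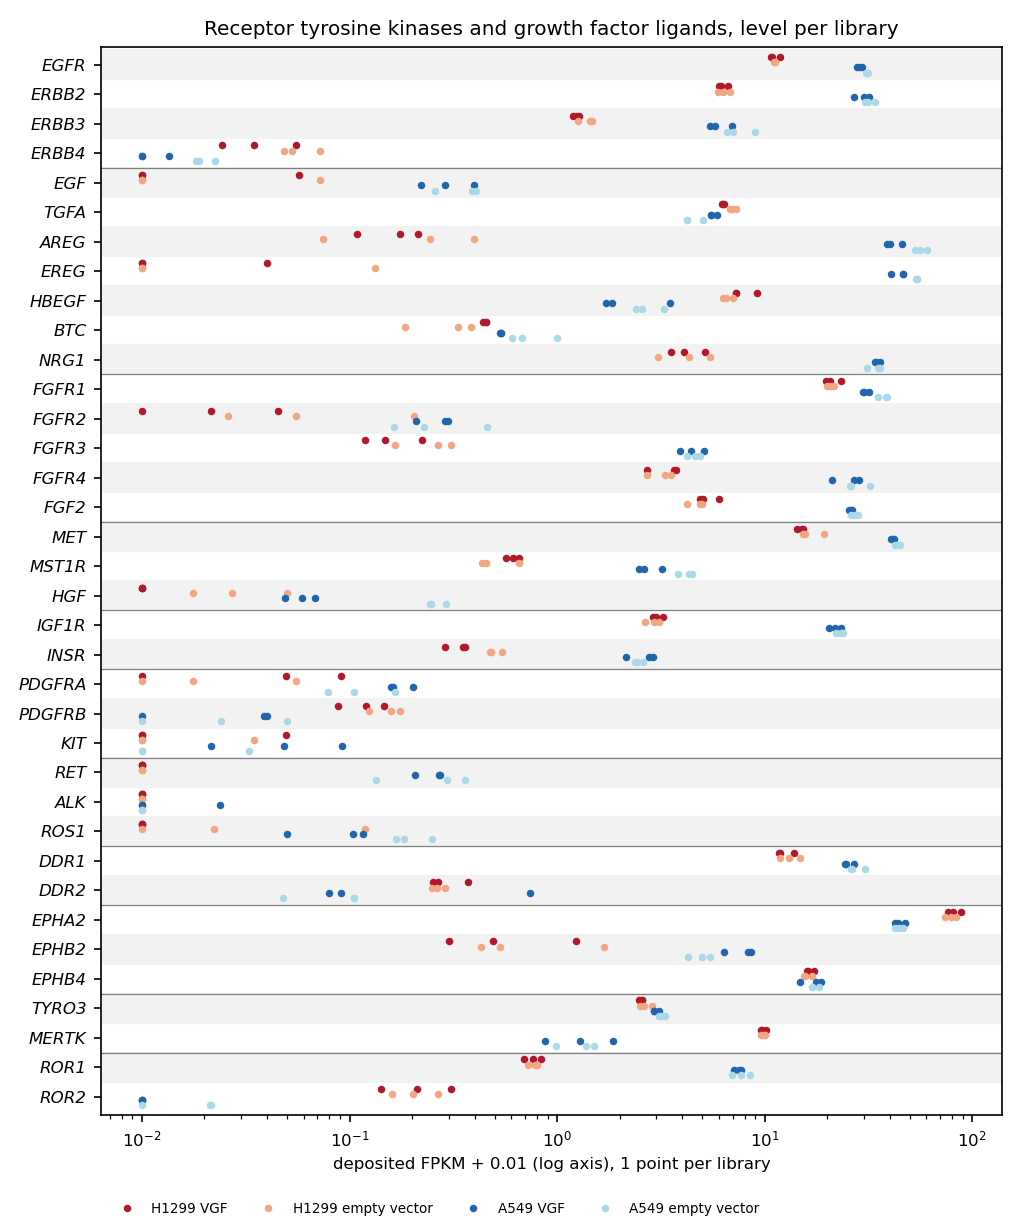
Deposited FPKM plus 0.01 on a log axis, 1 point per library, for the 36 genes grouped by family, with H1299 VGF, H1299 empty vector, A549 VGF and A549 empty vector in each row from top to bottom. EPHA2 is the highest row in H1299 at 78.8 FPKM with empty vector, AREG and EREG lie over 50 FPKM in A549 with empty vector and under 1 FPKM in H1299, and points at the left edge are libraries listed at 0.

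The lines differed in nearly every tested member. With VGF, 30 of the 34 tested genes (88.2%) were called between H1299 and A549, 6 higher and 24 lower in H1299. With empty vector 33 of the 34 (97.1%) were called, 7 higher and 26 lower. A gene was called at an adjusted p under 0.05 by edgeR's quasi-likelihood test with Benjamini-Hochberg adjustment over the 18228 tested features. With VGF 77.3% of tested features were called, 38.2% higher and 39.1% lower, and with empty vector 77.2%, 38.5% higher and 38.6% lower. A call in itself was therefore common, while the members were called lower in H1299 more often than tested features were. The median log2 fold change of the 34 tested members was −2.41 with VGF and −2.49 with empty vector, against −0.01 and 0.01 over all tested features. Members with 0 counts in a group were on the same side of each median at their bound. 30 genes were called the same way with both vectors, and no gene was called in opposite directions. A different scaling of the libraries, to their totals alone, moved the median of all features by 0.207 log2 in both comparisons and turned the direction of no called member.

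**Figure D2:**
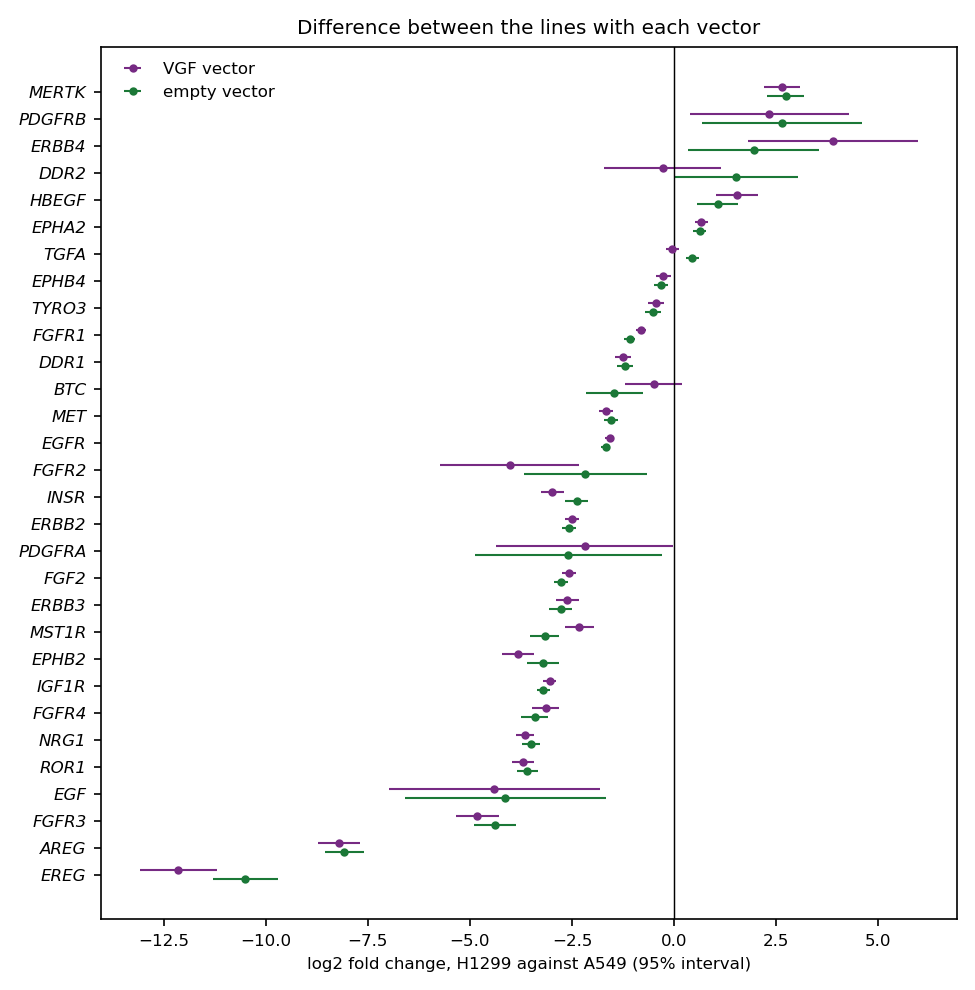
The log2 fold change of H1299 against A549 with its 95% interval for each tested gene with a count in every group, with VGF in purple above empty vector in green. ERBB4 lies furthest right with VGF at 3.89 and MERTK with empty vector at 2.73, EREG lies furthest left at −12.14 with VGF and −10.50 with empty vector, and RET, ROS1, HGF and ROR2 are not drawn because a group held 0 counts.

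Among the ERBB receptors, EGFR, ERBB2 and ERBB3 fell in H1299 with both vectors. EGFR, the receptor of EGF, TGFA, AREG and other ligands, had 104, 103 and 116 CPM in the H1299 VGF libraries, 108, 109 and 107 CPM in the H1299 empty-vector libraries, 321, 312 and 334 CPM in the A549 VGF libraries and 349, 341 and 344 CPM in the A549 empty-vector libraries. The 6 H1299 libraries lay far below the 6 A549 libraries, at log2 fold changes of −1.58 with VGF (SE 0.05, adjusted p = 7.52e-12, edgeR) and −1.68 with empty vector (SE 0.05, adjusted p = 4.57e-12, edgeR). ERBB2, the co-receptor with no ligand of its own, averaged 27.0 ± 1.63 and 27.3 ± 1.77 CPM in H1299 with VGF and empty vector, and 153 ± 13.3 and 163 ± 9.76 CPM in A549 with VGF and empty vector (SD, n = 3 each). ERBB3, a neuregulin receptor with little kinase activity, was lower by 2.61 with VGF and by 2.78 with empty vector on the log2 scale. In bulk RNA, fewer cells with a transcript and less of it per cell cannot be told apart.

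ERBB4, another neuregulin receptor, was scarce in both lines and the only ERBB receptor called higher in H1299. It had 7, 22 and 13 counts in the H1299 VGF libraries, 34, 23 and 19 in the H1299 empty-vector libraries, 2, 0 and 0 in the A549 VGF libraries and 6, 4 and 5 in the A549 empty-vector libraries. The groups of the lines did not overlap, and the log2 fold change was 3.89 with VGF (SE 0.96, adjusted p = 0.00239, edgeR) and 1.95 with empty vector (SE 0.74, adjusted p = 0.0284, edgeR). With empty vector the call was lost without any 1 of the 3 A549 empty-vector libraries, at edgeR adjusted p = 0.0638, 0.0922 and 0.0750 without libraries 1, 2 and 3, and without H1299 empty-vector library 1 (0.101) or library 2 (0.0562).

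Of the 7 EGF family ligands, 1 was called higher and 4 lower in H1299 with VGF, and 2 higher and 5 lower with empty vector. EREG and AREG, the genes of epiregulin and amphiregulin, which bind EGFR, showed the greatest differences of all 36 genes with a count in every group. EREG had 0, 0 and 6 counts in the H1299 VGF libraries and 0, 25 and 0 in the H1299 empty-vector libraries, against 6216, 9612 and 8563 in the A549 VGF libraries and 9715, 9526 and 9286 in the A549 empty-vector libraries. AREG had 10, 5 and 9 counts and 4, 22 and 12 counts in the H1299 VGF and empty-vector libraries, against 1595, 2213 and 2283 and 2565, 2651 and 2837 counts in the A549 VGF and empty-vector libraries. Both ligands were thus near the lower limit of counting in H1299 and abundant in A549. The log2 fold change of EREG was −12.14 with VGF (SE 0.43, adjusted p = 3.08e-11) and −10.50 with empty vector (SE 0.37, adjusted p = 2.54e-11), and that of AREG −8.21 (SE 0.24, adjusted p = 4.36e-12) and −8.08 (SE 0.22, adjusted p = 2.79e-12), all by edgeR. The H1299 counts of EREG came from library 3 with VGF and library 2 with empty vector, and without that library, which left 0 counts in the group, EREG was still called (adjusted p = 4.38e-09 and 2.81e-11, edgeR).

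EREG and AREG are neighbours on chromosome 4 in GENCODE release 29 on GRCh38, in a cluster of 4 EGF family genes. EPGN lies at chr4:74308473-74315307, EREG at chr4:74365143-74388751, AREG at chr4:74445134-74455009 and BTC, on the other strand, at chr4:74744759-74794686. The gaps between neighbours in that order are 49.8, 56.4 and 290 kb. EPGN, the gene of epigen and no member of the family described here, had 0 to 3 counts in every library. BTC, the gene of betacellulin, did not share the size of the EREG and AREG difference. It had 50, 45 and 52 counts in the H1299 VGF libraries and 22, 47 and 37 in the H1299 empty-vector libraries, against 50, 66 and 59 in the A549 VGF libraries and 61, 70 and 98 in the A549 empty-vector libraries. Its log2 fold change of −0.51 with VGF missed the threshold (SE 0.32, adjusted p = 0.161, edgeR) and that of −1.47 with empty vector passed it (SE 0.32, adjusted p = 0.00103, edgeR).

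HBEGF, the gene of heparin-binding EGF, which binds EGFR and ERBB4, was the EGF family ligand that rose in H1299 with both vectors. It had 21.5, 17.1 and 17.4 CPM in the H1299 VGF libraries, 16.5, 15.0 and 15.2 CPM in the H1299 empty-vector libraries, 4.96, 9.49 and 4.69 CPM in the A549 VGF libraries and 8.91, 6.48 and 6.92 CPM in the A549 empty-vector libraries. The H1299 libraries all lay above the A549 libraries, of which the highest was A549 VGF library 2, the library with 461 CPM of endothelial markers. The log2 fold change was 1.54 with VGF (SE 0.23, adjusted p = 4.98e-05, edgeR) and 1.07 with empty vector (SE 0.23, adjusted p = 0.000970, edgeR), and the part of the endothelial transcripts in the level was not tested. TGFA, an EGFR ligand, was called higher in H1299 with empty vector and not with VGF, at a log2 fold change of −0.04 with VGF (SE 0.07, adjusted p = 0.618, edgeR) and 0.44 with empty vector (SE 0.08, adjusted p = 0.000127, edgeR).

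NRG1, the gene of neuregulin 1, a ligand of ERBB3 and ERBB4, had 11.1, 12.7 and 10.1 CPM in the H1299 VGF libraries, 13.6, 15.7 and 12.4 CPM in the H1299 empty-vector libraries, 141.1, 141.4 and 142 CPM in the A549 VGF libraries and 168, 160.4 and 144 CPM in the A549 empty-vector libraries. It fell in H1299 by 3.65 with VGF (SE 0.10, adjusted p = 2.60e-12, edgeR) and by 3.50 with empty vector (SE 0.10, adjusted p = 3.15e-12, edgeR) on the log2 scale, with no overlap between the lines. EGF, the ligand that gives the family its name, was scarce, with 0, 9 and 0 counts in the H1299 VGF libraries, 14, 0 and 0 in the H1299 empty-vector libraries, 46, 47 and 74 in the A549 VGF libraries and 73, 47 and 73 in the A549 empty-vector libraries. Its log2 fold change was −4.40 with VGF (SE 1.19, adjusted p = 0.00448, edgeR) and −4.13 with empty vector (SE 1.14, adjusted p = 0.00499, edgeR). Its H1299 counts came from library 2 with VGF and library 1 with empty vector, and without that library EGF was still called against a group at 0 counts (adjusted p = 0.00146 and 0.000574, edgeR).

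The promoters of EREG, AREG and HBEGF are shown because EREG and AREG were low in H1299 together while HBEGF went the other way. Each is the 250 bases before the gene start in the direction of transcription, from RefSeq on GRCh38.p14: chr4:74364895-74365144 on the plus strand for EREG, chr4:74444886-74445135 on the plus strand for AREG and chr5:140346604-140346853 on the minus strand for HBEGF. Capitals mark matches on either strand to the TATA box (TATAAA), the cAMP response element (TGACGTCA), the AP-1 element (TGANTCA), the CCAAT box (CCAAT) and the GC box (GGGCGG), and neighbouring GC boxes may overlap.
EREG: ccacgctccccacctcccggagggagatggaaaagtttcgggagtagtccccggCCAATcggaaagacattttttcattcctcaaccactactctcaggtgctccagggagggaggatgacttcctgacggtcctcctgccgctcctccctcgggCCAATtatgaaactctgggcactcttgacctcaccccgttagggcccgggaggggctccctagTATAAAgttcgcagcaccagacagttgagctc
AREG: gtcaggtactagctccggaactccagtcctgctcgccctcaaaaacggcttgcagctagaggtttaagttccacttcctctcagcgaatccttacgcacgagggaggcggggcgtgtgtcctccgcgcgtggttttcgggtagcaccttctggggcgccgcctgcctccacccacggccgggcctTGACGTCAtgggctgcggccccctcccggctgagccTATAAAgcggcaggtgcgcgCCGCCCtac
HBEGF: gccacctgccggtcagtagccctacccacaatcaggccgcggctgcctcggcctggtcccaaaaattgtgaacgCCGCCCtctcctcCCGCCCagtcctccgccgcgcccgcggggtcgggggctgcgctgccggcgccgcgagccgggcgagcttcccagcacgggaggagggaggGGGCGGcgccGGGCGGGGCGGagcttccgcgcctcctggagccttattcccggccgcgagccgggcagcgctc

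EREG and AREG both hold a TATA box, 32 and 29 bases before the RefSeq start, which 10.8% of 34941 RefSeq promoters hold in a window of this length. EREG also holds 2 CCAAT boxes (held by 32% of promoters), and AREG a cAMP response element (1.63%) and 1 GC box (42.5%). HBEGF holds 5 GC boxes and none of the other 4 motifs. The AP-1 element, held by 6.59% of promoters, matched none of the 3 windows. The GC content was 58% for EREG, 65.2% for AREG and 76.4% for HBEGF. The ratio of observed to expected CpG was 0.530, 0.871 and 0.907 in the same order, against a median of 0.556 over all promoters. These are matches of letters, and binding was not measured.

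All 5 genes of the FGF system fell in H1299 with both vectors. FGFR3 and FGFR4, receptors of fibroblast growth factors, averaged 0.695 ± 0.219 and 9.58 ± 1.79 CPM in H1299 with VGF, 1.05 ± 0.337 and 8.62 ± 1.31 CPM in H1299 with empty vector, 19.9 ± 1.20 and 84.7 ± 12.3 CPM in A549 with VGF, and 22.1 ± 1.62 and 92.0 ± 9.14 CPM in A549 with empty vector (SD, n = 3 each). FGFR3 was 28.3-fold lower with VGF and 20.9-fold lower with empty vector, and FGFR4 8.83-fold and 10.7-fold lower. FGFR1 was the least reduced receptor of the family, at 101, 104 and 113 CPM in the H1299 VGF libraries, 105, 110.1 and 101 CPM in the H1299 empty-vector libraries, 187, 176 and 197 CPM in the A549 VGF libraries and 235, 227 and 210.4 CPM in the A549 empty-vector libraries. Its log2 fold change was −0.81 with VGF (SE 0.06, adjusted p = 4.99e-08, edgeR) and −1.09 with empty vector (SE 0.06, adjusted p = 2.65e-09, edgeR). FGF2, a ligand of these receptors, was lower by 2.57 with VGF and by 2.77 with empty vector on the log2 scale; 11.9% of its exonic bases overlap NUDT6 on the other strand, and whether counting used strand is not given in the sources used here. FGFR2 was scarce, with 0 to 19 counts in the H1299 libraries and 26 to 57 in the A549 libraries.

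MET and its relatives fell too. MET, the receptor of hepatocyte growth factor, had 92.5, 98.8 and 98.8 CPM in the H1299 VGF libraries, 101, 126 and 98.9 CPM in the H1299 empty-vector libraries, 302, 307 and 309.9 CPM in the A549 VGF libraries and 309, 325 and 315 CPM in the A549 empty-vector libraries. The lines did not overlap, at log2 fold changes of −1.66 with VGF and −1.54 with empty vector (SE 0.08 each, adjusted p = 3.90e-10 and 7.93e-10, edgeR). MST1R, the receptor of macrophage-stimulating protein, was lower by 2.32 with VGF and by 3.17 with empty vector on the log2 scale. HGF, the ligand of MET, was scarce throughout. It had 0 counts in all 3 H1299 VGF libraries and 3, 5 and 10 counts in the H1299 empty-vector libraries, against 8, 14 and 14 counts in the A549 VGF libraries and 62, 52 and 51 in the A549 empty-vector libraries. HGF was at least 14.1-fold lower in H1299 with VGF, set against a floor of 3 counts over the group (0.0244 CPM), and 11.4-fold lower with empty vector (adjusted p = 6.73e-05 and 0.000166, edgeR). The receptors of insulin and its relatives followed the same direction. IGF1R was lower by 3.04 with VGF and 3.21 with empty vector on the log2 scale, and INSR by 2.98 and 2.39.

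The remaining receptors went in both directions. MERTK, a TAM receptor that takes part in clearing dead cells, had 36.8, 37.5 and 39.8 CPM in the H1299 VGF libraries, 36.5, 39.4 and 37.3 CPM in the H1299 empty-vector libraries, 3.90, 8.39 and 5.81 CPM in the A549 VGF libraries and 6.55, 6.15 and 4.39 CPM in the A549 empty-vector libraries. It rose in H1299 by a log2 fold change of 2.64 with VGF (SE 0.21, adjusted p = 7.59e-08, edgeR) and 2.73 with empty vector (SE 0.21, adjusted p = 6.01e-08, edgeR), and A549 VGF library 2 was the highest A549 library. Its relative TYRO3 was lower by 0.44 with VGF and by 0.52 with empty vector on the log2 scale. EPHA2 rose in H1299 by 0.67 with VGF and 0.63 with empty vector on the log2 scale (SE 0.07 each, adjusted p = 2.28e-06 and 4.08e-06, edgeR).

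EPHB2, an ephrin-B receptor, averaged 4.04 ± 1.25 and 4.79 ± 0.856 CPM in H1299 with VGF and empty vector, and 57.3 ± 5.00 and 44.3 ± 3.45 CPM in A549 with VGF and empty vector. EPHB4, its relative, differed little, at log2 fold changes of −0.26 with VGF (adjusted p = 0.0111, edgeR) and −0.32 with empty vector (adjusted p = 0.00307, edgeR). Neither call of EPHB4 held when libraries were scaled to their totals alone (−0.05 and −0.12, adjusted p = 0.534 and 0.194, edgeR), and without A549 VGF library 2 the value with VGF was −0.17 (adjusted p = 0.0755, edgeR). DDR1, a collagen receptor, fell in H1299 by 1.25 with VGF and by 1.21 with empty vector on the log2 scale.

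The receptors ROR1 and ROR2, which bind WNT5A, differed in opposite directions. ROR1 averaged 3.55 ± 0.673 and 3.87 ± 0.183 CPM in H1299 with VGF and empty vector, against 46.2 ± 2.59 and 46.8 ± 4.33 CPM in A549 with VGF and empty vector, log2 fold changes of −3.70 and −3.59. ROR2 was scarce, with 33, 22 and 53 counts in the H1299 VGF libraries, 28, 47 and 32 in the H1299 empty-vector libraries, 0 in all 3 A549 VGF libraries and 0, 2 and 2 in the A549 empty-vector libraries. ROR2 was at least 30.0-fold higher in H1299 with VGF (floor of 3 counts over the group, 0.0291 CPM) and 19.2-fold higher with empty vector (adjusted p = 5.47e-05 and 0.000426, edgeR).

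RET and ROS1, receptors known from gene fusions in lung cancers, were called lower in H1299 with both vectors. RET, the receptor of the GDNF family, had 0 counts in all 6 H1299 libraries, against 37, 51 and 60 in the A549 VGF libraries and 62, 76 and 21 in the A549 empty-vector libraries, and was at least 58.7-fold lower with VGF and at least 68.0-fold lower with empty vector (adjusted p = 4.06e-05 and 3.30e-05, edgeR). ROS1 had 0 counts in the 3 H1299 VGF libraries and 0, 5 and 16 in the H1299 empty-vector libraries, against 24, 14 and 32 in the A549 VGF libraries and 47, 50 and 67 in the A549 empty-vector libraries. ALK and KIT were too low to be tested. ALK had 4 counts in A549 VGF library 2 and 0 in the other 11 libraries. KIT, the stem cell factor receptor, had 0 to 8 counts in 11 libraries and 19 in A549 VGF library 2.

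PDGFRA and PDGFRB, receptors of platelet-derived growth factor that are also fibroblast markers, had at most 57 and 42 counts in any library. Of the exonic bases of PDGFRA, 15.8% overlap AC058822.1 on the same strand. PDGFRB was called higher in H1299, at 2.33 with VGF (adjusted p = 0.0311, edgeR) and 2.64 with empty vector (adjusted p = 0.0171, edgeR) on the log2 scale. Its call with VGF was lost without A549 VGF library 1 (adjusted p = 0.0785) or 3 (0.0641) or without H1299 VGF library 1 (0.0807) or 2 (0.0628), and its call with empty vector without A549 empty-vector library 1 (0.0545), all by edgeR. PDGFRA was −2.19 with VGF (adjusted p = 0.0597, edgeR) and −2.60 with empty vector (adjusted p = 0.0387, edgeR). Its call changed when 1 library was left out: with empty vector it was lost, at edgeR adjusted p = 0.0513 to 0.110, without H1299 VGF library 1, H1299 empty-vector library 2 or 3, A549 VGF library 1 or 3, or A549 empty-vector library 1 or 2. With VGF it was gained, at edgeR adjusted p = 0.0359 to 0.0446, without H1299 VGF library 3 or H1299 empty-vector library 1 or 2. The 8 fibroblast markers, these 2 included, summed to 60 to 107 counts in the H1299 libraries and 789 to 1059 in the A549 libraries. Most of the A549 counts were COL1A1, at 703 to 943, with DCN at 0 in 5 of the 6 A549 libraries. In the H1299 libraries COL1A1 had 21 to 45 counts and PDGFRB 20 to 42.

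VGF changed no member in A549 at the threshold. None of the 34 tested members was called against 0.79% of tested features, and 10 had an unadjusted p under 0.05 (edgeR), against 13.9% of features. Of these 10, 3 were higher and 7 lower with VGF. The libraries of the groups did not overlap for 13 of the 34, 3 higher and 10 lower, where 9.28% of features were higher and 9.08% lower in that way. The median log2 fold change was −0.09 over the members and 0 over all features, and 26 of 34 members and 9250 of 18228 features were at or below 0. Without A549 VGF library 2, 0 members were called, against 0.514% of features tested in that fit, 6 had an unadjusted p under 0.05, against 10.4% of features, and the median was −0.07.

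**Figure D3:**
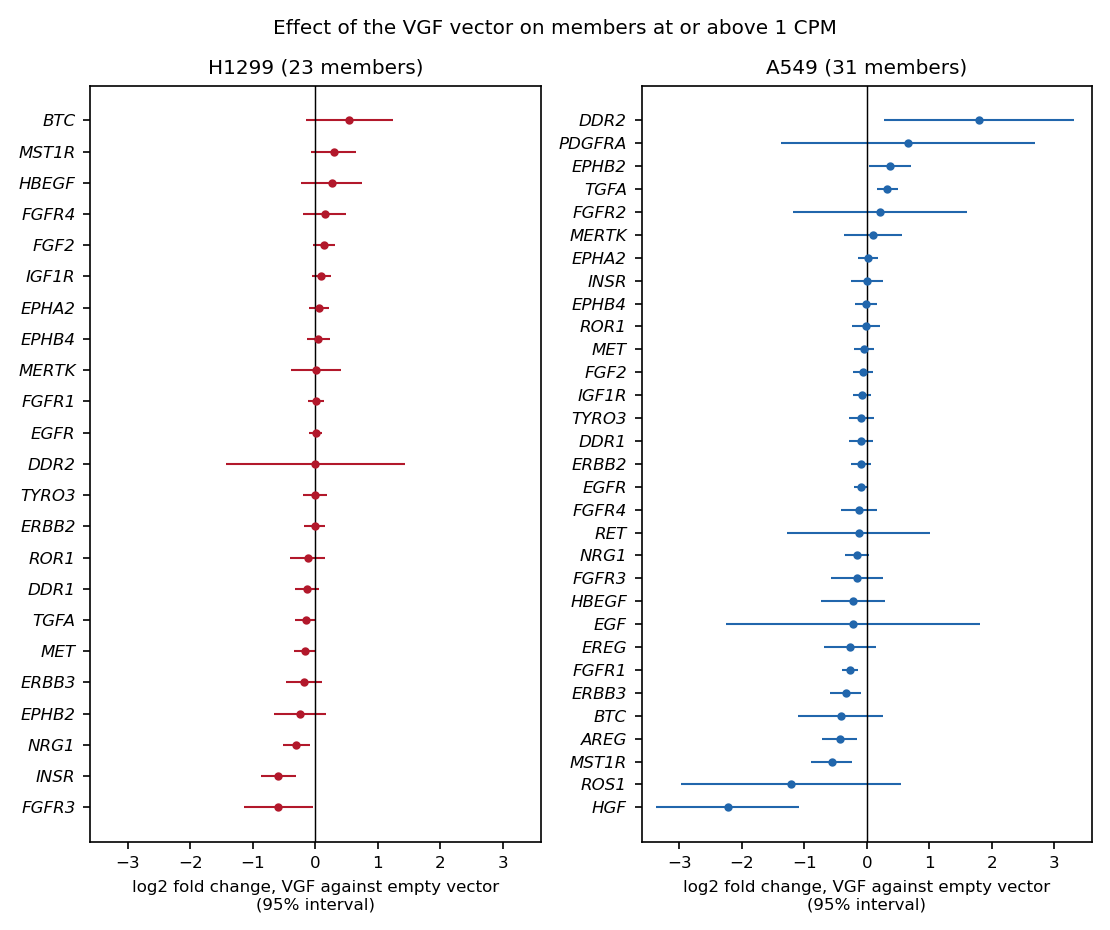
The log2 fold change of VGF against empty vector with its 95% interval for tested genes with at least 1 CPM on average in a group of the line, H1299 on the left (23 genes) and A549 on the right (31 genes). Most intervals cross 0, HGF is lowest in A549 at −2.23 and INSR and FGFR3 are lowest in H1299, and none of these genes was called.

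The members nearest the threshold in A549 were FGFR1, TGFA, HGF, MST1R and AREG, given here as values. FGFR1 had 187, 176 and 197 CPM in the A549 VGF libraries and 235, 227 and 210.4 CPM in the A549 empty-vector libraries. All 3 VGF libraries were below all 3 empty-vector libraries, at −0.26 on the log2 scale (SE 0.06, adjusted p = 0.0676, edgeR). TGFA had 28.2, 26.0 and 26.5 CPM in the A549 VGF libraries and 23.8, 20.5 and 19.9 CPM in the A549 empty-vector libraries, at 0.33 (SE 0.08, adjusted p = 0.0702, edgeR), again with no overlap. Without A549 empty-vector library 1, which was the highest of its group, TGFA was called at 0.41 (adjusted p = 0.0410, edgeR).

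HGF, with the counts given above, averaged 0.345 ± 0.0657 CPM in A549 with VGF and 1.63 ± 0.151 CPM in A549 with empty vector (SD, n = 3 each), at −2.23 (SE 0.53, adjusted p = 0.0914, edgeR). MST1R had 12.5, 12.9 and 16.1 CPM in the A549 VGF libraries and 21.2, 21.3 and 18.8 CPM in the A549 empty-vector libraries, at −0.56 (SE 0.15, adjusted p = 0.112, edgeR). AREG had 54.5, 56.6 and 65.7 CPM in the A549 VGF libraries and 74.7, 79.2 and 85.3 CPM in the A549 empty-vector libraries, at −0.44 (SE 0.13, adjusted p = 0.152, edgeR). None of these 3 genes had overlapping groups. On the same counts DESeq2 called these 3 genes with FGFR1 and TGFA (adjusted p = 0.00185 to 0.0113), and limma voom called them with FGFR1 and EPHB2 (adjusted p = 0.00866 to 0.0490), so the number of calls depends on the test. Of the 18228 tested features, DESeq2 called 729 and limma voom 334 in this contrast, against 144 by edgeR.

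**Figure D4:**
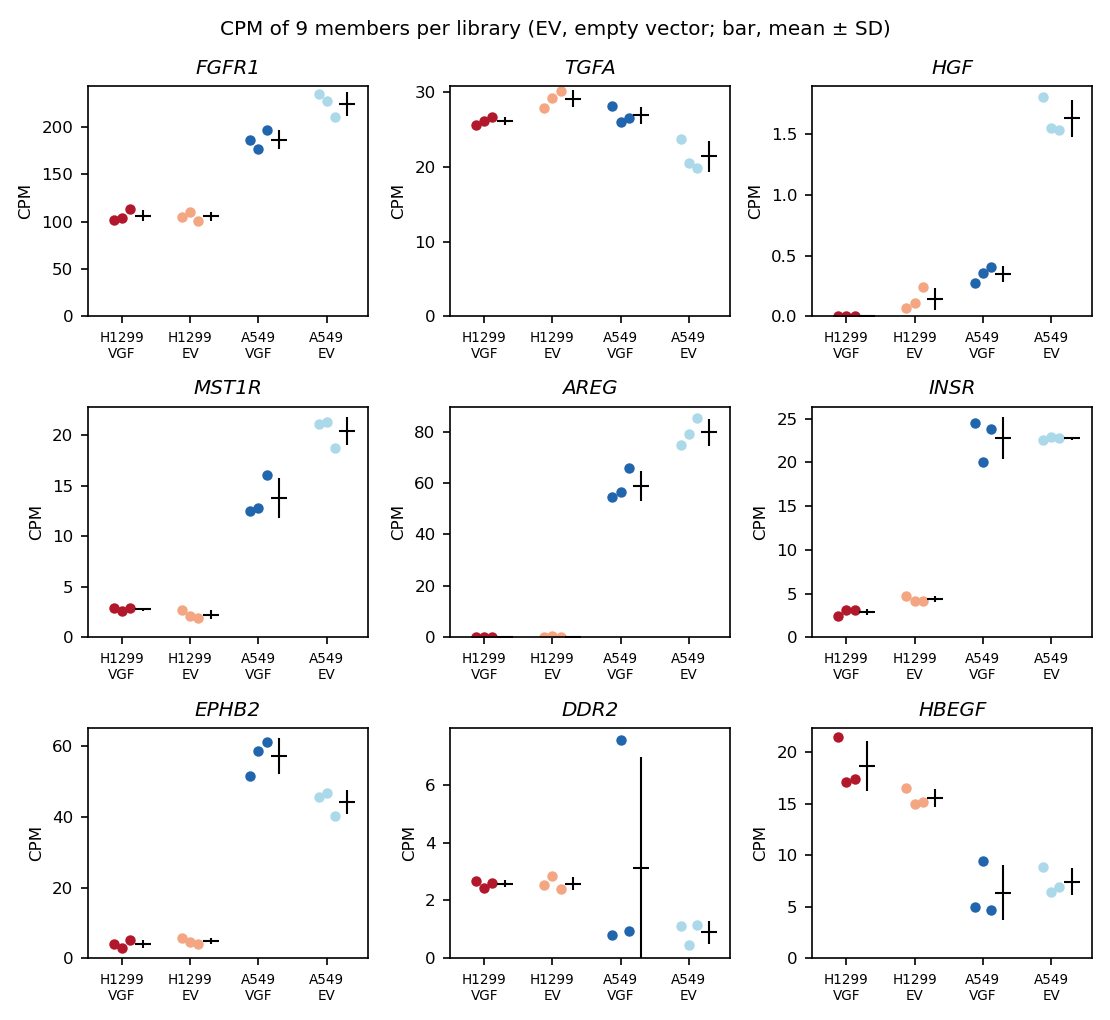
CPM per library for 9 genes, with H1299 VGF, H1299 empty vector (EV), A549 VGF and A549 EV from left to right in each panel and the mean ± SD beside the points. FGFR1, HGF, MST1R and AREG are lower and TGFA and EPHB2 higher in the 3 A549 VGF libraries than in the 3 A549 EV libraries, and the DDR2 bar of A549 VGF rests on 1 library at 7.54 CPM.

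EGFR, ERBB2 and ERBB3 showed small values in A549. ERBB4 was scarce, with 2, 0 and 0 counts in the A549 VGF libraries and 6, 4 and 5 in the A549 empty-vector libraries. These groups did not overlap, and ERBB4 was not called. EGFR had 321, 312 and 334 CPM in the VGF libraries and 349, 341 and 344 CPM in the empty-vector libraries, at −0.10 (95% interval −0.20 to 0.01, adjusted p = 0.394, edgeR). ERBB3 was at −0.34 (SE 0.12, adjusted p = 0.208, edgeR) with overlapping groups, and ERBB2 at −0.09 (SE 0.07, adjusted p = 0.653, edgeR). EREG was at −0.26 (SE 0.19, adjusted p = 0.612, edgeR). The 95% intervals of MET, EPHA2 and IGF1R in A549 were −0.21 to 0.11, −0.14 to 0.18 and −0.22 to 0.07 on the log2 scale, which bounds any change of these 3 abundant receptors.

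EPHB2 had 51.7, 58.7 and 61.4 CPM in the A549 VGF libraries and 45.6, 46.9 and 40.4 CPM in the A549 empty-vector libraries, at 0.37 (SE 0.16, adjusted p = 0.315, edgeR) without overlap. The deposited FPKM values put the same gene at 7.76 ± 1.20 in A549 with VGF and 4.89 ± 0.592 in A549 with empty vector, a wider gap than in the counts, and the cause was not tested. DDR2, a collagen receptor, had 24, 295 and 33 counts in the A549 VGF libraries and 38, 15 and 38 in the A549 empty-vector libraries. Its fitted value of 1.79 (adjusted p = 0.279, edgeR) rests on A549 VGF library 2 and was −0.02 without it. HBEGF was likewise highest in that library, with 145, 371 and 163 counts in the A549 VGF libraries and 306, 217 and 230 in the A549 empty-vector libraries. In counts and in the CPM given above, A549 VGF libraries 1 and 3 lay below every A549 empty-vector library. The fitted VGF value of HBEGF in A549 without library 2 is not given here. Between the lines DDR2 was not called with VGF (−0.28, adjusted p = 0.709) or with empty vector (1.52, adjusted p = 0.0625), and without A549 VGF library 2 it was called higher in H1299 with VGF at 1.56 (adjusted p = 0.00203) and with empty vector at 1.53 (adjusted p = 0.000733), all by edgeR. The DDR2 value with empty vector was also called, at edgeR adjusted p = 0.0327 and 0.0381, without A549 VGF library 1 or 3.

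In H1299 VGF also changed no member at the threshold. None of the 34 was called against 0.011% of tested features, and 6 had an unadjusted p under 0.05 (edgeR), all lower with VGF, against 7.8% of features. Groups did not overlap for 7 of the 34, 2 higher and 5 lower, where 5.65% of features were higher and 7.07% lower in that way. The median log2 fold change was −0.07 over the members and −0.01 over all features.

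INSR, the insulin receptor, had 2.44, 3.11 and 3.09 CPM in the H1299 VGF libraries and 4.73, 4.15 and 4.13 CPM in the H1299 empty-vector libraries. The groups did not overlap, at −0.59 on the log2 scale (SE 0.13, adjusted p = 0.170, edgeR), while in A549 the same contrast was 0.00 (95% interval −0.25 to 0.25). HGF had 0 counts in the 3 H1299 VGF libraries and 3, 5 and 10 in the H1299 empty-vector libraries, at least 5.78-fold lower against the floor of 3 counts (adjusted p = 0.143, edgeR). ROS1 had 0, 0 and 0 counts and 0, 5 and 16 counts in the same groups (adjusted p = 0.447, edgeR). DESeq2 called these 3 genes lower (adjusted p = 0.0234 for INSR, 0.0334 for HGF and 0.0450 for ROS1), among 139 of the 18228 tested features. NRG1, the neuregulin gene, was at −0.30 in H1299 (SE 0.10, adjusted p = 0.476, edgeR) in counts, and MET at −0.17 (SE 0.08, adjusted p = 0.632, edgeR). EGFR was at 0.00 (95% interval −0.10 to 0.11), EPHA2 at 0.06 (−0.10 to 0.22) and FGFR1 at 0.01 (−0.12 to 0.14).

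The VGF effects of the lines were compared directly, as H1299 minus A549. None of the 34 members was called against 0.159% of tested features, and 8 had an unadjusted p under 0.05 (edgeR), against 11.2% of features. TGFA was nearest. It had 25.5, 26.2 and 26.6 CPM in the H1299 VGF libraries and 27.9, 29.3 and 30.2 CPM in the H1299 empty-vector libraries, so that all 3 VGF libraries lay below the empty-vector libraries in H1299 and above them in A549. The difference was −0.49 (SE 0.11, adjusted p = 0.113, edgeR). MST1R differed by 0.85 (SE 0.22, adjusted p = 0.200, edgeR), INSR by −0.59 (SE 0.17, adjusted p = 0.257, edgeR) and FGFR1 by 0.28 (SE 0.09, adjusted p = 0.275, edgeR). DESeq2 called the differences of TGFA and MST1R (adjusted p = 0.0123 and 0.0276), among 310 of the 18228 tested features.

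Other genes of the same pathways were listed by role and read in the same fit. Between the lines with empty vector, 14 of 20 tested other receptor tyrosine kinases were called (70%), 7 higher and 7 lower in H1299, and 22 of 31 other ligands (71%), 10 higher and 12 lower. Over all tested features 77.2% were called, 38.5% higher and 38.6% lower, so neither count stood above that share. AXL, the third TAM receptor, averaged 1064 CPM in H1299 with empty vector and 156 CPM in A549 with empty vector, a difference of 2.77 on the log2 scale (SE 0.06, adjusted p = 4.47e-13, edgeR), in the direction of MERTK. EPHA4 and PTK7 were higher in H1299 by 1.85 and 1.47. NTRK3, the neurotrophin-3 receptor, had 0 counts in all H1299 libraries and averaged 50.7 CPM in A549 with empty vector, at least 2197-fold lower, and FLT4 and LMTK3 were lower by 2.26 and 2.11 on the log2 scale. Among ligands FGF5 (8.92), FGF1 (8.04) and PDGFC (3.17) were higher in H1299 and CSF1 (−5.30), EFNA1 (−5.05) and KITLG (−4.42) lower, so FGF1 and FGF5 went against FGF2.

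Of the adaptors and proximal enzymes, 17 of 20 were called (85%), 9 higher and 8 lower. The PI3K subunits PIK3R1, PIK3CB and PIK3CA were higher in H1299 by 1.33, 1.15 and 1.11 on the log2 scale. Of the exonic bases of PIK3CA, 35.8% overlap KCNMB3 on the other strand. IRS2, the docking protein of the insulin and IGF1 receptors, averaged 0.839 CPM in H1299 with empty vector and 126 CPM in A549 with empty vector, and SRC and STAT3 were lower by 4.43 and 2.25. Among inhibitors and turnover genes 20 of 26 were called (76.9%), 12 higher and 8 lower. SPRY4, an inhibitor of RAS-MAPK signalling, averaged 263 CPM in H1299 with empty vector and 30.8 CPM in A549 with empty vector, SH2B3 and SPRED3 were higher by 2.23 and 2.02, and GRB10, LRIG3 and SPINT2 were lower by 9.49, 8.83 and 6.07. The list for ligand shedding and activation also held IGF-binding proteins, which bind IGF ligands and are not sheddases. Of its 13 tested genes 12 were called (92.3%), all lower in H1299. Over all tested features 77.2% were called, 38.6% lower. The greatest differences in this list were those of the IGF-binding proteins IGFBP1 (−10.82), IGFBP4 (−10.48) and IGFBP3 (−4.87). ADAM17, the main sheddase of EGF family ligands, named after its values were seen, was lower by 1.31. Genes on the other strand overlap 13.6% of its exonic bases.

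Of the 110 tested other pathway genes, 2 were called between VGF and empty vector in A549 (1.82%, against 0.79% of tested features) and 20 had an unadjusted p under 0.05 (18.2%, against 13.9%, edgeR). In H1299 0 were called (against 0.011%) and 10 had an unadjusted p under 0.05 (9.09%, against 7.8%, edgeR). KDR and TIE1 of these genes are also endothelial markers. They had 1077 and 1275 counts in A549 VGF library 2 and 4 to 8 in A549 VGF libraries 1 and 3. Without library 2, unadjusted p in A549 was under 0.05 for 3 of 21 other receptors, 6 of 30 other ligands and 2 of 20 adaptors. It was so for 5 of 26 inhibitors and 1 of 13 genes of the shedding list, against 10.4% of features (edgeR). In that fit 1 adaptor and 1 inhibitor were called, against 0.514% of features. SHC1, an adaptor that links receptors to GRB2 and RAS, fell to 413.9 CPM in A549 with VGF, against 484 CPM in A549 with empty vector, a difference of −0.23 on the log2 scale (SE 0.04, adjusted p = 0.0263, edgeR). Its call was lost without A549 VGF library 1 (adjusted p = 0.0602) or 3 (0.0637) or A549 empty-vector library 1 (0.0941) or 2 (0.0825). STYK1, a receptor-like kinase too low for the naming rule and named after its values were seen, had 11, 68 and 40 counts in the A549 VGF libraries and 8, 2 and 7 in the A549 empty-vector libraries. Its log2 fold change of 2.69 (SE 0.55, adjusted p = 0.0473, edgeR) was called, with the highest count in A549 VGF library 2, and the call was lost without any 1 of the 12 libraries except A549 VGF library 1 (adjusted p = 0.0652 to 0.148, edgeR).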

How the data were processed

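Messenger RNA was sequenced in 12 libraries, and 2 tables of the whole series were used. The authors deposited raw counts per feature and FPKM values of the same features, scaled by length and depth. The submitters' processing notes name GRCh38 and DESeq2, with no aligner, counter, annotation or use of strand given in the sources used here. 18 lines of stray text were left out of each table.

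The test was edgeR's quasi-likelihood F test on the counts (edgeR 4.0.16, limma 3.58.1, R 4.3.3), with TMM scaling, filterByExpr and Benjamini-Hochberg adjustment over 18228 features, in one fit of the 4 group means without a block, with 8 residual degrees of freedom. A gene was called at an adjusted p under 0.05. Standard errors came from the F statistic. Alternatives were DESeq2 1.42.0, limma voom, limma-trend on log2(FPKM + 1), other scaling, no filter, a replicate block, 6 libraries alone and leaving out each library. The fit was tested on simulated data. Where a group held 0 counts, 3 counts over the group served as its floor, and floors cover counting error alone.

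The members and the lists of other pathway genes and markers were chosen with earlier results of these data known. All members are described. Of each other list up to 3 called genes per direction are named, those with the greatest log2 fold change between the lines with empty vector, or for VGF within a line, and a group mean of 5 CPM or more, beside ADAM17 and STYK1, which were named after their values were seen. Positions are from GENCODE release 29, and promoters from RefSeq. Replicates of each group differed beyond sampling noise in every pair (chi-square per degree of freedom 7.60 to 20.6).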

Additional observations from a re-analysis of the deposited data

How the results depend on the processing

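The number of members called for VGF in A549, 0 by the edgeR test, was 1 with upper-quartile scaling (FGFR1), 1 with library totals alone (FGFR1, chosen after seeing the data), 1 with limma-trend on FPKM (MST1R), 2 with only the 6 libraries compared (AREG and HGF), 5 with DESeq2, 5 with limma voom and 0 to 1 when 1 library was left out. In H1299 it was 3 with DESeq2 and 0 otherwise, and for the difference between the VGF effects 2 with DESeq2 and 0 otherwise. Between the lines it was 25 to 31 with VGF and 27 to 34 with empty vector over the settings, with the lowest values from FPKM. Values that changed direction were DDR2 in A549 without A549 VGF library 2 (−0.0201, with 2.24 without A549 VGF library 1), NRG1 in H1299 in FPKM (0.00748), TGFA between the lines with VGF, at 0.0802 with upper-quartile scaling, 0.141 in FPKM and 0.164 with library totals alone, and DDR2 between the lines with VGF, at 0.36 with limma voom, 0.0285 in FPKM, 0.0437 with the replicate block, 1.56 without A549 VGF library 2 and −0.722 without A549 VGF library 1. The cause of these changes was not tested. Over all features, the 144 calls for VGF in A549 became 729 with DESeq2, 334 with limma voom, 96 without A549 VGF library 2 and 43 with the replicate block, the 2 in H1299 became 139 with DESeq2, and the 29 for the difference became 310 with DESeq2. Upper-quartile scaling moved the median difference between the lines by 0.122 with VGF and 0.106 with empty vector, and FPKM by 0.197 and 0.192.

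Samples of the lines and vectors share replicate numbers, but same-numbered samples did not deviate together: the correlations of their deviations from the group means ran from −0.134 to 0.105 over 18 pairs, with 1 pair over 0.1. With the number as a replicate block, 0 members were called for VGF in A549, 0 in H1299, 0 for the difference, 30 between the lines with VGF and 32 with empty vector, where ERBB4 was lost (adjusted p = 0.0561, edgeR). Members with few counts, such as ERBB4 and PDGFRA, have wide intervals with 3 libraries a group.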
